A study of Caenorhabditis elegans with 245 samples.

Results

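Adult females were compared with adult males among the F1 progeny of control sires, by poly(A) RNA-seq of whole worms of the nematode *C. elegans*. This comparison used 6 of the 245 samples of the series, 3 libraries of females and 3 of males, which were found by their GEO titles. The rest of the series holds small RNA libraries (sperm, males and females), single-embryo mRNA libraries, and 6 further libraries of F1 females and males sired by *rnst-2* mutants. All the animals came from the *fog-2(q71)* background. In this background XX animals, hermaphrodites in the wild type, make no sperm of their own and are called females, while XO males make normal sperm.

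The 3 female libraries and the 3 male libraries have the genotype label *fog-2*, with no other allele or treatment. A second line of column names in the deposited table calls the same columns hetcat_female and hetcat_male, while the header of that table and the study's text give the sires of the controls as WT *fog-2* males. These names differ, and which is right for each library was not resolved. For each library about 50 animals were picked by sex at the last larval stage (L4) and grown at 20 °C for a further 24 h. The study describes the F1 females as virgin. Animals were lysed whole, so that each value is a mean over the tissues of many animals. The labels put the RNA yield of 50 animals at about 1 µg for females and about 500 ng for males. The study describes its replicates as biological, and the labels do not say which of them came from separate crosses, so the p-values measure the spread between these libraries.

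Values are TPM, a normalised transcript level in which each gene is given per unit of length and as a share of all transcripts in its library. TPM keeps no read depth, so the depth of each library is unknown and no counting interval can be given. Testing was limited to genes whose mean over the 6 libraries reached 5 TPM. A gene was called when its adjusted p was under 0.05 (limma, Benjamini-Hochberg) and its mean differed by at least 2-fold. All log2 differences are females minus males on the log2(TPM + 1) scale, which understates the change of low genes. In bulk samples, fewer cells of a type and less RNA per cell cannot be told apart.

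As background, the sexes of *C. elegans* follow the number of X chromosomes. A cascade that starts with *xol-1* and the *sdc* genes sets the level of the secreted protein HER-1, which in males blocks the receptor TRA-2, and the last step is the transcription factor TRA-1. In the germline the FOG and FEM proteins direct cells to sperm, and the RNA-binding proteins GLD-1, FBF and the MOG splicing factors take part in the choice of oocytes. The adult female intestine makes yolk proteins, which the oocytes take up through the receptor RME-2. Sperm crawl by means of the major sperm proteins (MSPs), which form the cytoskeleton of the pseudopod and, once released, signal to oocytes.

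Of 8290 genes tested, 3868 (46.7%) were higher in females and 1842 (22.2%) were lower in females. Genes at 0 in 1 sex entered the test only through the other sex, and counts within the gene lists are therefore given as descriptions. Between libraries, the correlation of log2(TPM + 1) over genes was 0.982 to 0.986 among females, 0.956 to 0.979 among males and only 0.0955 to 0.181 between a female and a male library. The groups did not overlap for 6964 genes (84.0%). Past 32-fold, 124 genes were higher in females and 882 were lower, and 864 of the genes called lower were listed at 0 in every female library, against 88 of the genes called higher that were listed at 0 in every male library.

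Genes called higher in females took 67.1% to 67.6% of all TPM in females and 21.9% to 23.1% in males, and genes called lower took 1.33% to 1.38% in females and 50.5% to 55.1% in males, a direction that the choice of the genes fixes. In the *rnst-2*-sired libraries, which were not used to choose them, the genes called higher took 62.2% to 67.0% in females and 19.8% to 20.7% in males, and the genes called lower took 1.38% to 1.62% in females and 55.7% to 58.5% in males. TPM are shares of a library, and the median log2 difference over all genes was 0.88, or 0.81 without the 100 most abundant genes. The part of the pool's make-up in this shift was not tested further. Median-of-ratios scaling, which sets the middle of the genes equal between libraries, moved this median to -0.06. Under it 1723 genes (20.9% of 8258 tested) were higher in females and 2666 (32.3%) were lower. Of the genes tested by TPM, 8078 were also tested under this scaling, so a member can drop out of a count by falling below the minimum. Gene lists are therefore given with both counts, and a change of about 2-fold is to be read against the shift of 0.88. Counts within a list are to be read against the shares over all genes under the same scaling.

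**Figure D1:**
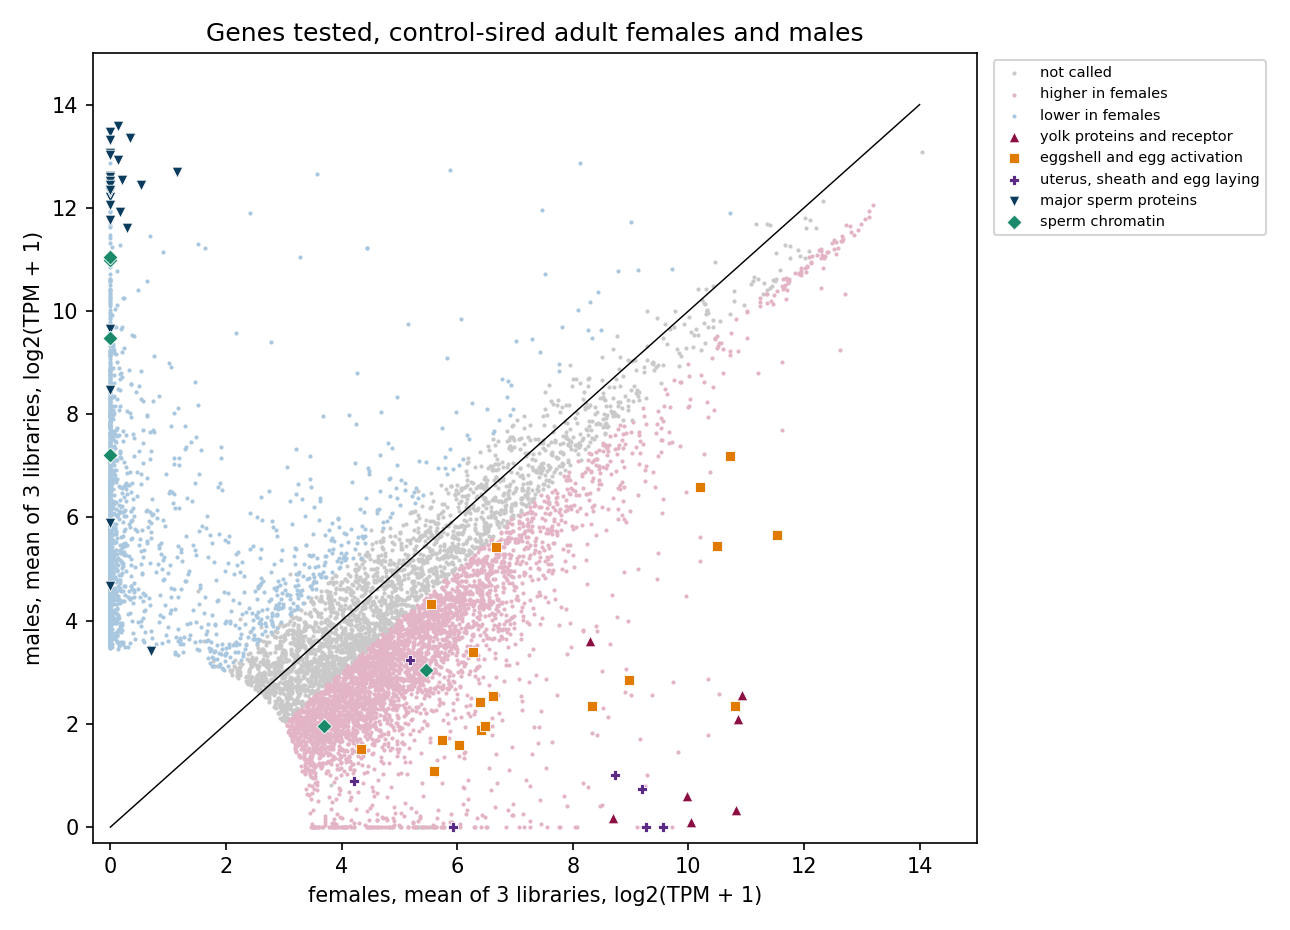
Mean log2(TPM + 1) of each of the 8290 genes tested in females (x axis) and males (y axis), 3 libraries each, with the line of equal values and 5 gene lists marked. Genes lower in females pile up at the left edge, where 864 were at 0 in every female library, and the yolk, eggshell and uterine genes lie well to the right of the line.

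Sperm transcripts led the genes lower in females. The 35 MSP genes together took 0.000303%, 9.3e-05% and 0.000578% of all TPM in the 3 female libraries, against 16.9%, 17.9% and 17.8% in the 3 male libraries. Of these genes, 33 were tested and all 33 were lower in females under either scaling, with a median log2 difference of -12.36, against 0.88 over all genes tested. The other 2, *msp-32* and *msp-37*, were too low to test, at 0 in females, against means of 0.623 and 2.13 TPM in males. *msp-19* was listed at 0 TPM in all 3 female libraries, against 10744, 11274 and 11966 TPM in males, and *msp-57* had 0, 0 and 0.29 TPM in females, against 11474, 12712 and 12548 TPM in males. Of the 35 genes, 26 were listed at 0 in every female library. No female value of *msp-19* or *msp-57* came near the lowest male one.

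MSP genes are close copies, so that the share of reads given to each single gene can depend on how the counting split them. Of the 35, 28 have a coding sequence of 384 bases, and over their 378 pairs the identity was 86.2% to 99.5%, with a median of 92.5% and 0 identical pairs. The first 90 coding bases of 4 abundant copies are shown as examples. Capitals mark the 11 positions at which the 4 differ (WBcel235, RefSeq, coding strand, from the start codon).
msp-113 (chrIV:5297962-5298051, + strand): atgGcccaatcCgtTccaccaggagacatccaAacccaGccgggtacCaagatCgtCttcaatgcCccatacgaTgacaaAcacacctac
msp-19 (chrIV:5260589-5260678, + strand): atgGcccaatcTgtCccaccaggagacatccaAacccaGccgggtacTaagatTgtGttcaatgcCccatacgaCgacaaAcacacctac
msp-81 (chrIV:9836328-9836417, − strand): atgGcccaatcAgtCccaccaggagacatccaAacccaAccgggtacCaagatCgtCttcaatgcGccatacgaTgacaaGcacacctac
msp-152 (chrII:4933027-4933116, + strand): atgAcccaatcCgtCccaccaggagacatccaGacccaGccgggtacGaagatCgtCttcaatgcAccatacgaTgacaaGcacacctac
All 4 were high in males. *msp-113* was listed at 0 in all 3 female libraries, against 8398, 8349 and 8091 TPM in males, *msp-81* likewise against 7972, 8560.0 and 8958 TPM in males, and *msp-152* had 0.29, 0 and 0 TPM in females, against 7152, 7742 and 8528 TPM in males. The 35 genes lie on chromosomes II (15 genes) and IV (20 genes).

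Other sperm genes were also lower in females, over a wider range of levels. Of 66 genes in the table, 57 were tested, 53 were lower in females and 2 were higher, with a median of -7.02. Under median-of-ratios scaling 54 were lower and 0 were higher, where *ssp-37*, higher by TPM, was below the minimum and not tested. They took 0.00693%, 0.0088% and 0.00858% of TPM in females, against 6.36%, 6.47% and 5.3% in males, and an exact permutation test of 3 against 3 libraries cannot give a p below 0.1 for such a share. Those with the largest differences belonged to families of short sperm-specific transcripts. *nspd-2* and *ssp-9* were both listed at 0 in all 3 female libraries, against 7846, 8071 and 6489 TPM for *nspd-2* and 5244, 5352 and 5217 TPM for *ssp-9* in males. The *nspd*, *ssp* and *ssq* genes also have close copies, and their single values carry the same uncertainty as those of the MSP genes.

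Genes with known roles in sperm followed. *gsp-3* and *gsp-4* encode the sperm protein phosphatases: *gsp-3* had 0.08, 0 and 0 TPM in females, against 756, 855 and 867 TPM in males, and *gsp-4* was listed at 0 in females, against 554, 606 and 630.5 TPM in males. *spe-9*, whose product acts at the meeting of sperm and egg, had 0.07, 0 and 0.17 TPM in females, against 12.4, 13 and 8.32 TPM in males (log2 difference -3.48, SE 0.20, adjusted p = 2.60e-06). *spe-11*, the paternal factor that the embryo needs, had 0, 0 and 0.14 TPM in females, against 90.9, 92.4 and 42.7 TPM in males, the third male library lying lowest. Not all members were near 0 in females. *spe-44*, a transcription factor of spermatogenesis, had 3.39, 6.27 and 4.99 TPM in females, against 21.2, 24.7 and 25.6 TPM in males (log2 difference -2.11, SE 0.21, adjusted p = 5.62e-05), and the groups did not overlap. *ssp-37* went the other way, with 12.2, 10.6 and 6.89 TPM in females, against 0.64, 0 and 0 TPM in males (log2 difference 3.18, SE 0.28, adjusted p = 2.89e-05), and stood among the 2 higher members. The count of 2 fell to 1 without female replicate 2, without female replicate 3 or without male replicate 1, each in turn.

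Of the 6 genes of sperm chromatin, 4 were lower and 2 higher in females. The 3 SPCH proteins are small basic nuclear proteins of sperm. *spch-1* was listed at 0 TPM in all 3 female libraries, against 2087, 2144 and 1839 TPM in males. *spch-2* and *spch-3* were also at 0 in females and reached 696, 742 and 689 TPM and 2322, 2228 and 1756 TPM in males. The sperm histone H2A variant *htas-1* was at 0 in females, against 185, 155 and 103 TPM in males. The linker histone *his-24* was higher in females, at 32.9, 39 and 57 TPM, against 6.78, 4.44 and 10.5 TPM in males (log2 difference 2.45, SE 0.32, adjusted p = 2.33e-04). The linker histone *hil-1* was higher in females by TPM, at 11.7, 8.3 and 15.9 TPM, against 3.04, 3.79 and 1.87 TPM in males, and its call was lost under median-of-ratios scaling (log2 difference 0.97).

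**Figure D2:**
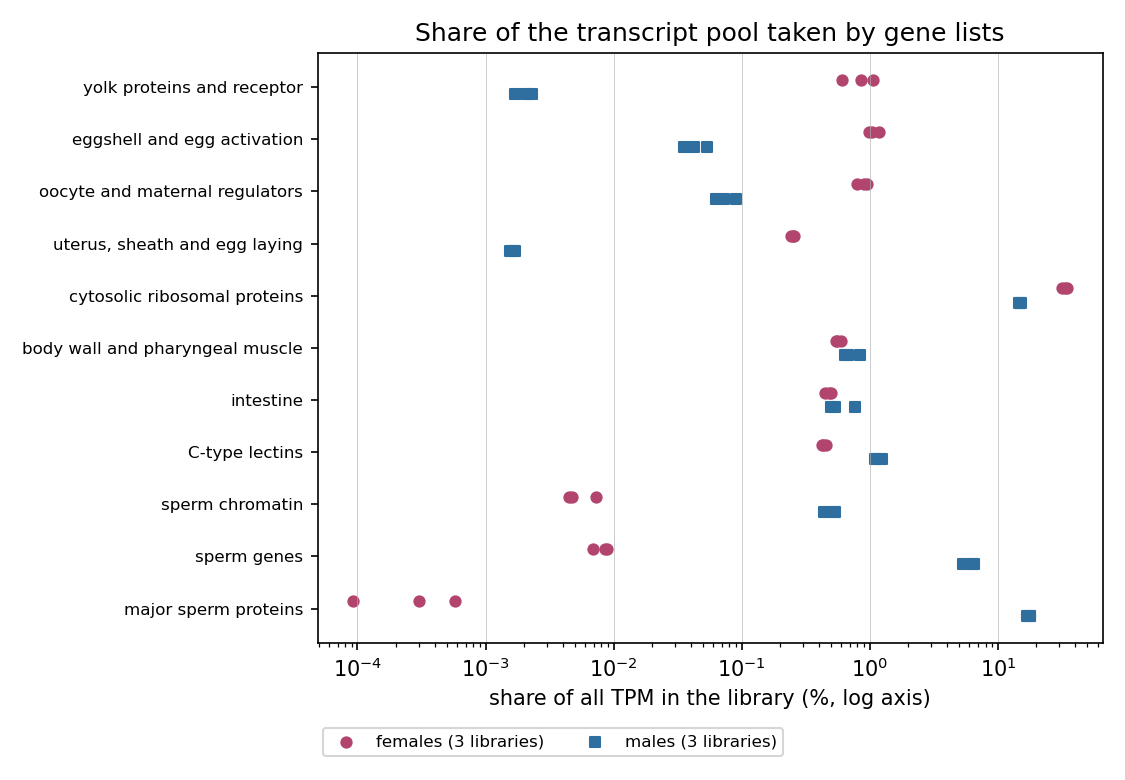
Share of all TPM taken by 11 gene lists (percent, log axis), with a circle for each of 3 female libraries and a square for each of 3 male libraries. The MSP genes took at most 0.000578% in females and 16.9% to 17.9% in males, while the muscle and intestine lists lie close together in both sexes.

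The promoters of these genes were read because the members of each family moved together. Windows ran from 250 bases before to 50 bases after the RefSeq gene start (WBcel235). GATAA, the core of the sites of GATA factors such as ELT-1, was searched on both strands, and in *C. elegans* ELT-1 is known to act on MSP genes. It was found in 26 of 31 MSP windows, against 57.6% of the windows of 19971 protein-coding genes. The MSP genes are close copies, so their windows are not independent, and MSP genes without a window were left out. Over all genes called lower in females the share was 63.5%. The windows of *msp-113* and *spch-1* are printed as examples, with GATAA (or TTATC, the same site on the other strand) in capitals.
msp-113 (chrIV:5297712-5298011, + strand): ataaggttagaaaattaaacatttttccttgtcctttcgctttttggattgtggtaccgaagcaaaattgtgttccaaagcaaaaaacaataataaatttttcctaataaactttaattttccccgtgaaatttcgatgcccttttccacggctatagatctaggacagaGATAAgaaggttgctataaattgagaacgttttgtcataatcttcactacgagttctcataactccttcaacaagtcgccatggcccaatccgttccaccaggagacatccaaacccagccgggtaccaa
spch-1 (chrIV:10111492-10111791, − strand): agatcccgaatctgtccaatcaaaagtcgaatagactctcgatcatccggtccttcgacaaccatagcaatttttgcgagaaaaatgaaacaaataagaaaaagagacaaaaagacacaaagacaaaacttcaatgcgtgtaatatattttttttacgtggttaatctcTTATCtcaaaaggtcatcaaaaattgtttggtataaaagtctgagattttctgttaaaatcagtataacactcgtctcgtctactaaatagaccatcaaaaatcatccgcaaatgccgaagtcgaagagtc
The word is short and common, and a match describes the window without showing that it is bound. *elt-1* itself was lower in females, at 1.87, 2.05 and 3.07 TPM, against 9.64, 10.8 and 12.6 TPM in males (log2 difference -1.86, SE 0.19, adjusted p = 6.11e-05), and every male library was above every female one.

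Yolk genes showed the opposite extreme. All 7 members of the yolk list were tested and higher in females under both scalings, with a median log2 difference of 8.74. *vit-2*, an X-linked vitellogenin, had 1242, 1904 and 2387 TPM in females, against 2.73, 4.44 and 2.57 TPM in males (log2 difference 8.74, SE 0.28, adjusted p = 1.02e-07), a ratio of means of 568. *vit-6*, on chromosome IV, had 1343, 2010.2 and 2464 TPM in females, against 3.2, 5.55 and 6.05 TPM in males (log2 difference 8.34, SE 0.28, adjusted p = 1.44e-07). *vit-1* had 313, 470.3 and 455 TPM in females, against 0.19, 0.05 and 0.13 TPM in males. In females the lowest value of all 3 genes was in replicate 1, and yolk transcripts as a whole took 0.609%, 0.859% and 1.05% of TPM in females, against 0.00171%, 0.00205% and 0.00232% in males. *vit-3*, *vit-4* and *vit-5*, close copies whose reads the counting could have split, had female means of 1012 ± 183, 1061 ± 257 and 1809 ± 534 TPM, against male means of 0.513 ± 0.319, 0.07 ± 0.0755 and 0.253 ± 0.0907 TPM (SD, n = 3 each).

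The yolk receptor had a smaller log2 difference than the *vit* genes. *rme-2*, which oocytes use to take up yolk, had 284, 313 and 348 TPM in females, against 10.4, 9.92 and 13.1 TPM in males (log2 difference 4.71, SE 0.15, adjusted p = 1.10e-07), and its male values were above those of any *vit* gene. Among the 7 known regulators of yolk genes, 4 were tested, 1 was lower in females and 0 were higher. The lower one was *mab-3*, a DM-domain factor that keeps yolk genes off in males. It had 0.08, 0.35 and 0 TPM in females, against 10.1, 14.9 and 18.5 TPM in males (log2 difference -3.74, SE 0.24, adjusted p = 5.40e-06). *unc-62*, a homeodomain factor that acts on the yolk genes, had 7.69, 8.9 and 10.2 TPM in females, against 3.54, 4.74 and 4.99 TPM in males, a log2 difference of 0.87 that missed the 2-fold limit. *pqm-1* had 16.8, 15.4 and 15.5 TPM in females, against 30.1, 16.8 and 22 TPM in males, and was called lower in females only under median-of-ratios scaling (-1.32, against -0.47 by TPM).

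The short elements VPE1 (TGTCAAT) and VPE2 (CTGATAA, which contains GATAA) of the vitellogenin promoters are known from earlier work in this species. Matches in the *vit* windows were therefore fixed in advance, and they are given only to locate the elements. *vit-3*, *vit-4* and *vit-5* are also close copies, so the windows are not independent. VPE1 was in all 6 *vit* windows on either strand, with 2 matches in *vit-4* and *vit-5*, against 5.75% of the windows of all protein-coding genes. VPE2 was in 5 of 6, all but *vit-3*, against 8.21% of all windows. Over the genes called higher in females the VPE1 share was 5.42%, close to that of all genes, and the VPE2 share was 5.26%, below it. Over the genes called lower in females these shares were 4.74% and 9.02%. The *rme-2* window held neither element. The windows of *vit-2* and *vit-6* show both elements, in capitals.
vit-2 (chrX:5100782-5101081, + strand): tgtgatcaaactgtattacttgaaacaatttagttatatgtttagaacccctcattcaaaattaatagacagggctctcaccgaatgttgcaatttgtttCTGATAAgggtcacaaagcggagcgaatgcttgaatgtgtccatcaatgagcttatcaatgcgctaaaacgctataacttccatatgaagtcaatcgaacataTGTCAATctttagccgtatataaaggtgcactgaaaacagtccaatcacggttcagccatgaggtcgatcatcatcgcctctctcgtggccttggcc
vit-6 (chrIV:8260907-8261206, + strand): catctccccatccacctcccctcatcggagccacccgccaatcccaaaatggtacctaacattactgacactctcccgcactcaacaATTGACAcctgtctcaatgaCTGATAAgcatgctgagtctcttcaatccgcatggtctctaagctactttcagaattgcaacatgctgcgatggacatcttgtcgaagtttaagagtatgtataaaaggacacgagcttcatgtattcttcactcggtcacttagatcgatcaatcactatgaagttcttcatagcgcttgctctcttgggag
In *vit-6* the first capitals, ATTGACA, are VPE1 on the other strand.

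Oocyte and egg genes were higher in females with few exceptions. Of 33 maternal regulators, all 33 were tested and 31 were higher in females (27 under median-of-ratios scaling), with a median of 3.50 and 0 lower. *oma-2*, a zinc finger protein of maturing oocytes, had 271, 359 and 391 TPM in females, against 2.12, 2.23 and 2.93 TPM in males (log2 difference 6.63, SE 0.18, adjusted p = 5.42e-08). *pos-1*, a zinc finger regulator of maternal mRNAs, had 439, 498 and 488 TPM in females, against 4.19, 4.78 and 6.33 TPM in males. *nos-2*, a Nanos protein of the embryonic germline, was lowest in males, at 114, 132 and 127 TPM in females, against 0.25, 0.08 and 0.21 TPM in males (log2 difference 6.73, SE 0.14, adjusted p = 1.42e-08). *oma-1*, which acts together with *oma-2*, had a smaller log2 difference, with 96.4, 159 and 163 TPM in females, against 12.9, 20 and 14.9 TPM in males (log2 difference 3.03, SE 0.25, adjusted p = 2.17e-05). The cold-shock protein gene *cey-2* was the most abundant of the list at 2906, 3146 and 3402 TPM in females, against 170.4, 184 and 266 TPM in males.

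The 18 genes of the eggshell and of egg activation were all tested and all higher in females, 16 of them under both scalings, with a median of 4.26. The chondroitin proteoglycans of the eggshell led the list. *cpg-2* had 2644, 2905 and 3341 TPM in females, against 45.1, 45.6 and 57.6 TPM in males (log2 difference 5.88, SE 0.14, adjusted p = 2.96e-08). *cpg-3* had 1729, 1738 and 1932 TPM in females, against 3.45, 3.49 and 5.39 TPM in males (log2 difference 8.48, SE 0.17, adjusted p = 1.35e-08). *cpg-2* was the higher of the pair in both sexes. *egg-1*, a receptor of the oocyte surface, had 282, 319 and 366 TPM in females, against 2.78, 3.11 and 6.28 TPM in males, and *chs-1*, the chitin synthase of the eggshell, had 35.7, 52 and 54 TPM in females, against 0.83, 1.18 and 1.36 TPM in males. The 2 members that lost their call under median-of-ratios scaling were *mbk-2*, a kinase of the egg-to-embryo transition (1.22 by TPM, 0.34 by median-of-ratios), and *perm-3* (1.28 and 0.39).

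The *ule* transcripts of the uterus were among the most female-limited. Of 15 genes of uterus, sheath and egg laying 7 were tested, and all 7 were higher in females under both scalings, while 8 were too low. Of these 8, *fkh-6*, *lim-7* and *let-653* were higher in females without overlap. The groups of *ceh-18*, *nhr-6*, *egl-15*, *egl-17* and *ipp-5* overlapped. Mean TPM in females and males were 0.55 and 0.82 for *egl-15*, 0.04 and 0.24 for *egl-17*, and 2.11 and 2.14 for *ipp-5*. *ule-4* had 777, 806 and 684 TPM in females and *ule-1* had 627, 531 and 683 TPM in females, and both, like *ule-2*, were listed at 0 in all 3 male libraries. *ule-3* and *ule-5* reached 405, 414 and 457 TPM and 532, 611 and 622 TPM in females, against 3.05, 0 and 0 TPM and 1.87, 0.12 and 0 TPM in males. The ULE proteins are known from the uterine lumen. *lin-3*, the EGF-like signal that induces the vulva and also acts in the adult gonad, had 12.4, 19.4 and 20.6 TPM in females, against 1.07, 0.69 and 0.8 TPM in males.

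Transcripts of embryos were low in both sexes, and the study describes the females as virgin. Of 18 early zygotic genes, only *elt-1* passed the filter, and the 18 together summed to 5.72 to 7.52 TPM in females, against 10.6 to 13.9 TPM in males. Most of the male sum was *elt-1*, and the other 17 summed to 3.85, 4.80 and 4.45 TPM in females, against 0.93, 1.80 and 1.34 TPM in males. Of the 18, 4 were listed at 0 in every female library and 11 in every male library.

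The calls of sex determination genes depended on the scaling. Of 27 genes measured, 16 were tested, 10 were higher in females and 2 lower, with a median of 1.17. Of all genes tested, 46.7% were higher and 22.2% lower. Under median-of-ratios scaling 3 of the list were higher and 4 lower, against 20.9% and 32.3% of all genes. Of the 10 higher by TPM, 5 were not called there, and *fem-3* and *fbf-1* were below the minimum and not tested. *her-1*, the masculinizing ligand, was lower in females, at 2.73, 1.3 and 1.31 TPM, against 18, 19.4 and 6.86 TPM in males (log2 difference -2.42, SE 0.40, adjusted p = 8.69e-04), and the third male library was the lowest of the 3. *tra-2*, which encodes the receptor that HER-1 blocks, had a mean under 5 TPM and was not tested. Its values were 7.49, 6.52 and 7.52 TPM in females, against 1.88, 1.46 and 0.97 TPM in males, with no overlap. *tra-1* had 2.54, 5.28 and 7.01 TPM in females, against 6.24, 9.84 and 7.14 TPM in males, overlapping groups that missed the threshold by TPM (log2 difference -0.61, adjusted p = 0.112) and were called lower in females under median-of-ratios scaling (-1.38).

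The largest differences on the list were those of *fog-3* and *gld-1*. *fog-3*, required for the sperm fate, had 0.17, 0.26 and 0 TPM in females, against 39.1, 49.5 and 36 TPM in males (log2 difference -5.21, SE 0.18, adjusted p = 1.43e-07). *fog-1*, its partner in the same decision, had overlapping values of 7.08, 7.31 and 6.84 TPM in females, against 6.91, 7.78 and 13.3 TPM in males, not called by TPM (-0.31) and called lower in females by median-of-ratios (-1.104). *gld-1*, a translational repressor needed for oogenesis, had 131, 213 and 222 TPM in females, against 10.3, 18.8 and 29.4 TPM in males (log2 difference 3.29, SE 0.38, adjusted p = 1.27e-04). *fog-2*, the gene mutated in this background, had only 1.51, 1.52 and 1.2 TPM in females, against 0.13, 0.42 and 0.39 TPM in males, and was not tested. The labels do not say what the allele removes, so these values do not check the genotype.

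The 3 FEM proteins act together to promote the male fate, yet their transcripts differed from each other. *fem-2* had 59.7, 77.2 and 82.7 TPM in females, against 7.22, 11.6 and 12.4 TPM in males (log2 difference 2.72, SE 0.23, adjusted p = 2.35e-05). *fem-3* had 9.19, 9.7 and 11.9 TPM in females, against 1.65, 1.07 and 2.03 TPM in males (log2 difference 2.14, SE 0.19, adjusted p = 3.25e-05). *fem-1* had overlapping values, 12.9, 17 and 15.4 TPM in females, against 10.8, 12.4 and 14.4 TPM in males, and its small difference of 0.25 turned to -0.60 under median-of-ratios scaling. *laf-1* likewise overlapped and turned from 0.57 to -0.29. *fbf-1* was just past the limit (1.09) and fell below it without male replicate 1 (0.96). The 5 MOG genes tested had log2 differences of 1.16 to 2.27. Of these, only *mog-2*, at 63.8, 69.1 and 81.7 TPM in females, against 11.2, 12.1 and 19.7 TPM in males, kept its call under median-of-ratios scaling, as did *fem-2* and *gld-1*, while *nos-3* (1.62) lost its call (0.77).

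Several other genes of the list had a mean under 5 TPM over the 6 libraries. *xol-1*, the X-linked switch that reads the X chromosome number in embryos, had at most 0.31 TPM in any library, and its groups overlapped. *sdc-1* had 4.38, 5.16 and 7.41 TPM in females, against 0.09, 0.19 and 0.14 TPM in males, and *tra-4* had 5.54, 8.06 and 7.39 TPM in females, against 0.61, 0.33 and 0.31 TPM in males. Both genes, and *sex-1* and *fox-1*, are X-linked, and in each the highest male library was below the lowest female library. The groups did not overlap for 84.0% of all genes tested. None of *sdc-1*, *tra-4*, *sex-1* and *fox-1* reached a mean of 5 TPM.

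**Figure D3:**
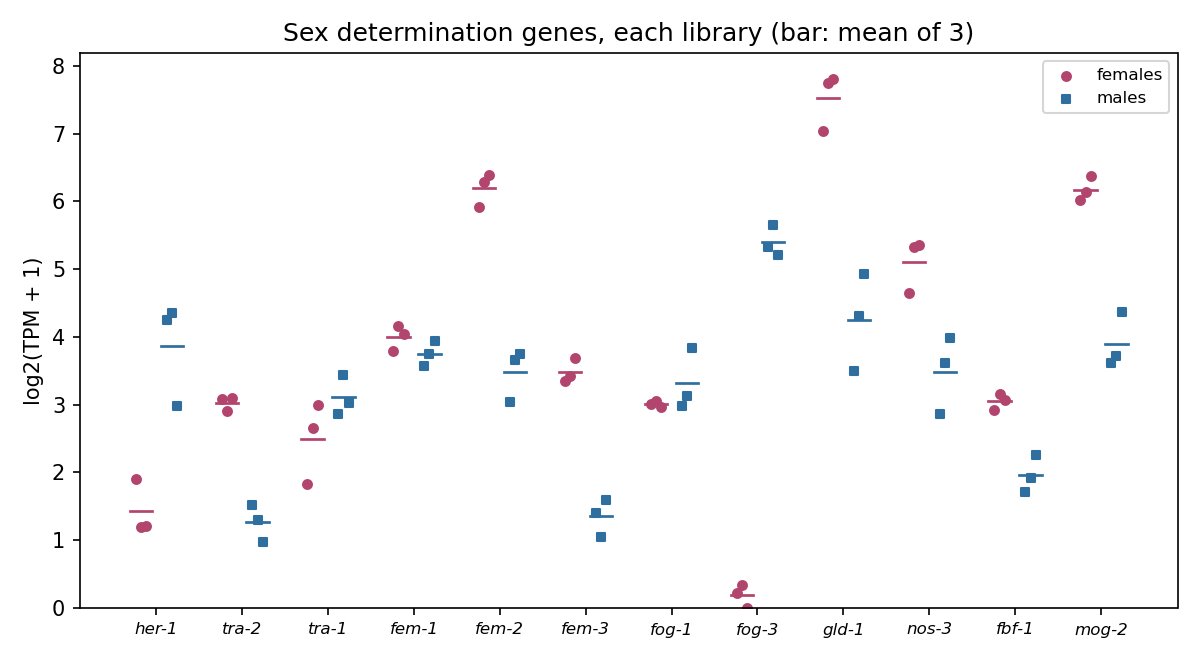
Level of 12 sex determination genes, as log2(TPM + 1), in each of 3 female libraries (circles, left) and 3 male libraries (squares, right), with a bar at each mean. The groups of *her-1*, *fog-3*, *fem-2*, *fem-3* and *gld-1* lie apart, and those of *tra-1*, *fem-1* and *fog-1* overlap.

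Genes of dosage compensation, the complex that lowers X transcription in XX animals, were tested for 4 of 10 members. Of these, 3 were higher in females (2 under median-of-ratios scaling) and 0 lower. By TPM 46.7% of all genes were higher, and 20.9% under median-of-ratios scaling. *dpy-30*, shared with a histone methyltransferase complex, had 322, 323 and 326 TPM in females, against 67.9, 68 and 70.2 TPM in males (log2 difference 2.22, SE 0.10, adjusted p = 6.32e-07). *mix-1*, a condensin subunit, had 12.4, 16.3 and 20.6 TPM in females, against 2.86, 3.78 and 3.37 TPM in males (log2 difference 1.99, SE 0.20, adjusted p = 6.74e-05). Both have other roles in the germline and in mitosis.

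Markers of male neurons and tail were mostly below the minimum. Of 21 genes of male neurons and tail, 4 were tested and lower in females, and the other 17 were not tested. *cwp-1*, a gene of male ciliated sensory neurons, had 0, 0 and 0.23 TPM in females, against 94.4, 101 and 123 TPM in males (log2 difference -6.63, SE 0.17, adjusted p = 3.34e-08), and its neighbour *cwp-2* had 0, 0 and 0.25 TPM in females, against 62.1, 63.9 and 67 TPM in males. *pkd-2*, a polycystin of these neurons, was low in both sexes, at 0 TPM in all 3 female libraries, against 1.43, 1.72 and 3.2 TPM in males. *pdf-1*, a neuropeptide of mate searching, had 11.4, 11.6 and 13.4 TPM in females, against 22.4, 28.9 and 32.2 TPM in males (log2 difference -1.12, SE 0.17, adjusted p = 5.59e-04).

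In the male gland, *try-5*, a protease of seminal fluid that activates sperm, had 0.71, 0.16 and 0.45 TPM in females, against 18, 11.6 and 15.3 TPM in males (log2 difference -3.47, SE 0.22, adjusted p = 4.81e-06). *swm-1*, which encodes an inhibitor of such proteases, had 29.8, 38.6 and 32.8 TPM in females, against 73.9, 58.1 and 41.4 TPM in males. The groups of *swm-1* did not overlap, but the difference of -0.73 was under 2-fold by TPM and past it under median-of-ratios scaling (-1.61).

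Most lectin and neuropeptide genes that were called were lower in females. Of 264 C-type lectin genes, 80 were tested, 56 were lower in females and 8 were higher, with a median of -4.21 (63 and 6 under median-of-ratios scaling). *clec-197* was listed at 0 TPM in all 3 female libraries, against 1088, 1081 and 1183 TPM in males. *clec-94*, *clec-208* and *clec-99* were likewise at 0 in females, with male means of 698 ± 13.8, 509 ± 66.4 and 468 ± 27.3 TPM (SD, n = 3). Of 145 neuropeptide and insulin-like genes, 91 were tested, 52 were lower and 2 higher in females, with a median of -1.21 (70 and 0 under median-of-ratios scaling, and 5 higher without male replicate 1). By family, 22 of 29 *flp*, 24 of 51 *nlp* and 6 of 11 *ins* genes tested were lower. Among all genes tested, 22.2% were lower by TPM and 32.3% under median-of-ratios scaling.

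A single insulin-like gene stood far above its family. *ins-31* was listed at 0 TPM in all 3 female libraries, against 1159, 1134 and 1132 TPM in males (log2 difference -10.16, SE 0.11, adjusted p = 1.82e-09), and *ins-37*, also at 0 in females, had 129, 144 and 121 TPM in males. *nlp-4* and *flp-23* followed, at 0, 0.37 and 0.58 TPM and 0 TPM in all 3 female libraries, against 78.5, 83.6 and 80.2 TPM and 50.8, 39.5 and 64.4 TPM in males. The male values of *ins-31* lay within the range of those of *clec-197*.

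Argonaute genes, which bind small RNAs, differed among themselves. Of 22 Argonaute genes 16 were tested, 7 higher and 3 lower in females, with a median of 0.59, which turned to -0.33 under median-of-ratios scaling (3 higher and 3 lower). By TPM these shares are near those over all genes tested, 46.7% higher and 22.2% lower. The 3 lower Argonaute genes were far apart from the rest. *alg-3* and *alg-4*, the Argonautes of sperm 26G small RNAs, had 0, 0 and 0.02 TPM and 0 TPM in all 3 female libraries, against 55.4, 87.5 and 89.4 TPM and 58.7, 82.7 and 104.5 TPM in males (log2 difference -6.25, SE 0.21, adjusted p = 1.32e-07 for *alg-3*). *wago-10* had 0.02, 0.07 and 0.02 TPM in females, against 23, 28.4 and 28.3 TPM in males. In the other direction *ergo-1*, the Argonaute of the oocyte and embryo 26G class, had 26.5, 37.4 and 40.6 TPM in females, against 1.5, 1.56 and 2.58 TPM in males (log2 difference 3.64, SE 0.22, adjusted p = 4.07e-06).

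The Argonautes of the whole germline stood between. *prg-1*, the piRNA-binding Piwi protein, had 56.8, 57.2 and 63.6 TPM in females, against 26.9, 41 and 57.7 TPM in males, and *csr-1* had 51.6, 73.9 and 79 TPM in females, against 33.4, 51.7 and 75.5 TPM in males. Both pairs of groups overlapped, and the signs of both differences (0.55 and 0.39) turned under median-of-ratios scaling (-0.33 and -0.50). Of 16 germ granule genes in the table, 15 were tested and 12 were higher in females (7 under median-of-ratios scaling), with 0 lower and a median of 1.88. For all genes the share called higher was 46.7% by TPM and 20.9% under median-of-ratios scaling. The 4 MEG genes, which encode disordered proteins that build P granules in the embryo, are all X-linked and were all higher in females. *meg-1* had 38, 56.2 and 64.8 TPM in females, against 0.15, 0 and 0 TPM in males (log2 difference 5.65, SE 0.22, adjusted p = 2.77e-07), and *meg-3* had 18.9, 26.3 and 33.7 TPM in females, against 0.05, 0.07 and 0.27 TPM in males. *cgh-1*, a helicase of germ granules, had 526, 824 and 878 TPM in females, against 43.7, 62 and 95.5 TPM in males.

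Meiosis genes, which both germlines use, were higher in females for 24 of 28 tested and lower for 0, with a median of 1.48. Over all genes, 46.7% were higher by TPM and 20.9% under median-of-ratios scaling. Under that scaling 8 meiosis genes kept the call. The largest was *him-8*, the zinc finger protein that pairs the X chromosomes, with 68.5, 103 and 36.6 TPM in females, against 2.87, 1.22 and 1.09 TPM in males (log2 difference 4.63, SE 0.41, adjusted p = 2.86e-05), and the 3 female values differed widely. *dsb-2*, needed for meiotic DNA breaks, had 39.8, 40 and 43.4 TPM in females, against 5.72, 5.16 and 7.24 TPM in males. *rec-8*, the meiotic cohesin, had 24.5, 24.5 and 22.9 TPM in females, against 9.28, 6.39 and 7.58 TPM in males, and lost its call under median-of-ratios scaling (1.52 and 0.68). *lab-1*, which protects cohesion, had overlapping values of 45.1, 47.2 and 46.1 TPM in females, against 55.6, 50.2 and 43.1 TPM in males (log2 difference -0.10).

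Of 26 cell cycle genes tested 21 were higher in females and 0 lower, with a median of 2.82 (16 and 1 under median-of-ratios scaling). The share of all genes called higher was 46.7% by TPM and 20.9% under median-of-ratios scaling. The cyclin gene *cyb-3* had 429, 513 and 539 TPM in females, against 8.65, 16.9 and 19.6 TPM in males (log2 difference 5.01, SE 0.29, adjusted p = 2.64e-06). Its relative *cyb-1* went the other way, at 129, 149 and 147 TPM in females, against 256, 299.6 and 189 TPM in males. That difference of -0.78 was under 2-fold by TPM and was the 1 member called lower under median-of-ratios scaling (-1.68). Genes of the replicative helicase, *mcm-2* to *mcm-7*, were all 6 higher in females under both scalings, and *mcm-3* had 53.6, 77.4 and 89.1 TPM in females, against 2.57, 3.19 and 4.65 TPM in males.

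Ribosomal protein genes took the largest share of any list in females, and in males a smaller one than the MSP genes. The 78 genes made up 34.5%, 33.2% and 31.4% of TPM in females, against 14.8%, 14.6% and 15.3% in males. By TPM 66 were higher and 1 lower in females, with a median of 1.16. Under median-of-ratios scaling the median was 0.26 and 0 were higher. The 2-fold calls of this near-uniform step thus depended on the scaling. The median of the list was above that of all genes under both scalings (0.88 by TPM and -0.06 by median-of-ratios over all genes). The 5 genes with the highest mean in females were *rpl-41.2*, *rpl-39*, *rpl-38*, *Y37E3.8* (*rpl-27A* in RefSeq) and *rps-28*. *rpl-41.2*, the highest, had 17596, 18566 and 14409 TPM in females, against 8960.4, 8815 and 8222 TPM in males. Its log2 difference of 0.95 was not called with all 6 libraries and was called without female replicate 3 (1.06). The 1 lower member was *rpl-42*, listed as C09H10.1, with 0.19, 0 and 0 TPM in females, against 45, 54.4 and 22 TPM in males (log2 difference -5.20, SE 0.32, adjusted p = 4.40e-06), under both scalings.

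Histone genes were mixed. Of 71 core histone genes, 25 were tested, 11 higher and 3 lower in females, and 46 were too low, with a median of 0.66 that turned to -0.34 under median-of-ratios scaling (3 and 7). By TPM the share of higher genes is near the 46.7% over all genes tested. Most core histone mRNAs lack a poly(A) tail and near-identical copies share reads, so these values carry 2 limits. The H3 variants gave the clearest pair. *his-70*, an H3.3-like gene, was listed at 0 TPM in all 3 female libraries, against 222, 251 and 213 TPM in males (log2 difference -7.84, SE 0.13, adjusted p = 5.95e-09). *his-72*, an H3.3 gene, had 414, 379 and 448 TPM in females, against 84.2, 81.3 and 79.8 TPM in males (log2 difference 2.32, SE 0.11, adjusted p = 9.23e-07), and both were called under both scalings.

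The eIF4E genes, which encode the cap-binding proteins of translation, were split. *ife-5* was lower in females, at 9.8, 7.06 and 7.97 TPM, against 40.9, 46.1 and 36.2 TPM in males (log2 difference -2.19, SE 0.17, adjusted p = 1.35e-05), under both scalings. *ife-2* was higher by TPM, at 70.8, 61.2 and 72.6 TPM in females, against 19.8, 18.7 and 16.6 TPM in males (1.84), and lost the call under median-of-ratios scaling (0.96). *ife-3*, the member most like mammalian eIF4E, had 355, 374 and 397 TPM in females, against 177, 203 and 210.4 TPM in males, a difference of 0.93. The median of the 5 genes, 0.62, turned to -0.14 under median-of-ratios scaling.

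**Figure D4:**
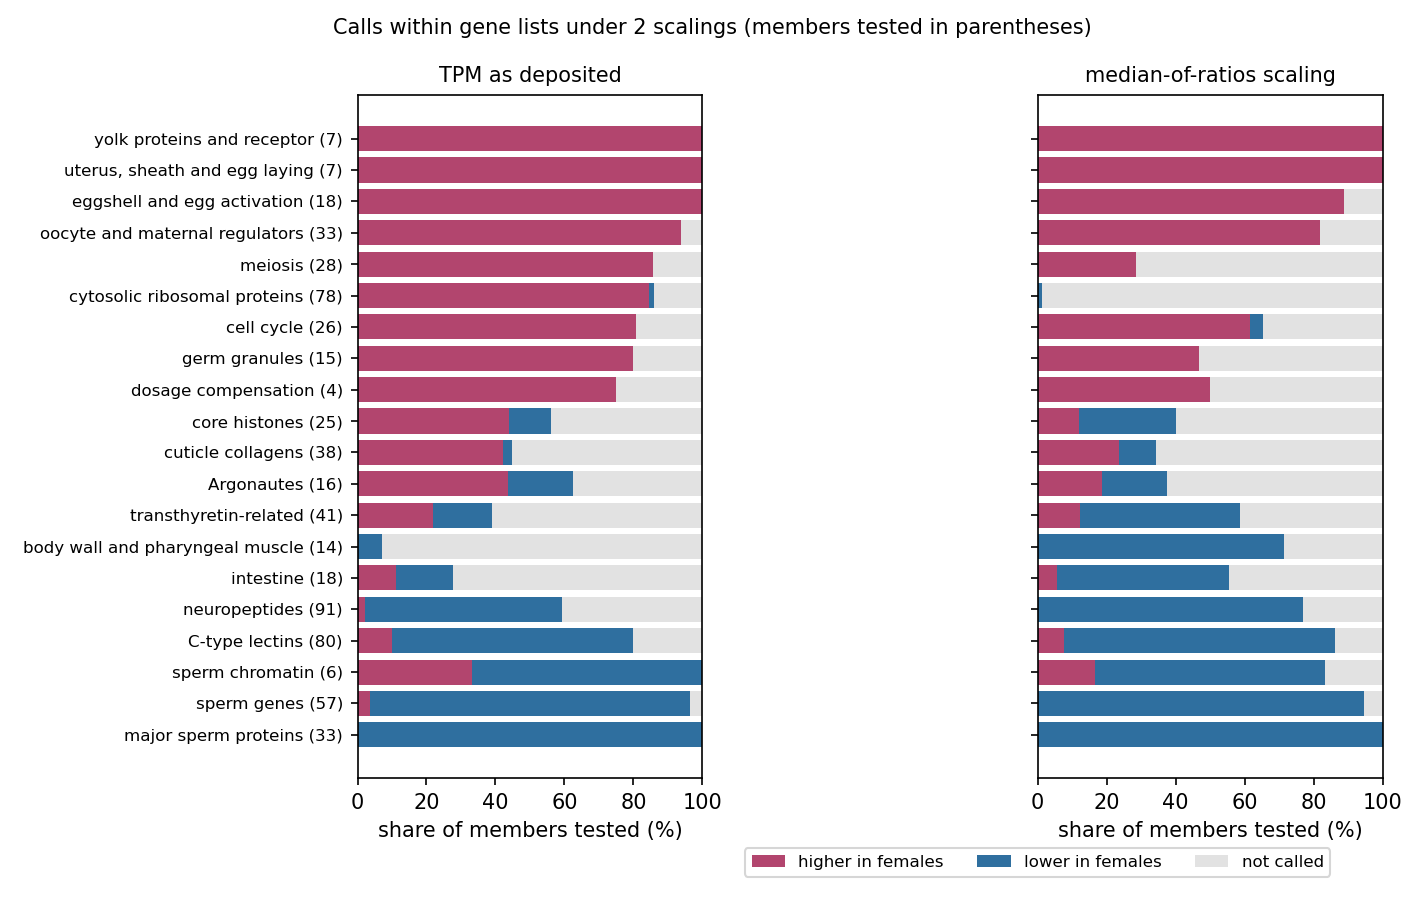
Share of the tested members of 20 gene lists called higher in females, lower in females or not called, by TPM (left) and by median-of-ratios scaling (right, where members not tested count as not called). The yolk, uterine, sperm and MSP lists look alike in both panels, and the ribosomal list goes from 66 higher of 78 to 0.

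For markers of tissues that both sexes share, the count of calls depended on the scaling. Over all genes 46.7% were higher and 22.2% lower in females by TPM, against 20.9% and 32.3% under median-of-ratios scaling. Of 14 muscle genes tested 1 was lower and 0 were higher in females by TPM, with a median of -0.35, and 10 were lower under median-of-ratios scaling. Leaving out female replicate 1 or male replicate 3 added 1 higher call. *unc-54*, the main body wall myosin, had 84.1, 134 and 146 TPM in females, against 81, 146 and 261 TPM in males, with wide overlap and a difference of -0.30 that turned to 0.11 without male replicate 3 and was called lower in females under median-of-ratios scaling (-1.20, adjusted p = 0.0237). The lower gene was *tni-3*, a troponin I, with 29.9, 23.8 and 30.8 TPM in females, against 130.1, 117 and 236 TPM in males (log2 difference -2.41, SE 0.28, adjusted p = 1.16e-04).

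Of 9 neuronal genes tested 4 were lower and 1 higher in females (6 and 0 under median-of-ratios scaling, and 2 higher without female replicate 1). *rab-3*, a GTPase of synaptic vesicles, had 2.05, 1.22 and 1.39 TPM in females, against 8.75, 11.6 and 14.1 TPM in males (log2 difference -2.28, SE 0.21, adjusted p = 4.06e-05), while *snb-1*, the synaptobrevin that also serves other cells, was higher, at 236, 222 and 256 TPM in females, against 121, 109.5 and 85.7 TPM in males. *snb-1* lost its call under median-of-ratios scaling (1.18 and 0.28).

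Of 18 intestinal genes tested 2 were higher and 3 lower in females, with a median of -0.11 (1 and 9 under median-of-ratios scaling, and 1 higher without male replicate 1). *mtl-1*, a metallothionein, had 611, 257 and 549 TPM in females, against 31.4, 31.4 and 26.3 TPM in males (log2 difference 3.86, SE 0.32, adjusted p = 2.14e-05), and its second female library was the lowest. *asp-1*, an aspartyl protease of the gut, had 548, 645 and 475 TPM in females, against 1664, 1447 and 2240.2 TPM in males (log2 difference -1.67, SE 0.19, adjusted p = 1.06e-04). *ges-1*, the gut esterase, had overlapping values of 9.32, 7.87 and 9.44 TPM in females, against 5.93, 6.82 and 12.8 TPM in males. Its difference of 0.12 turned to -0.0778 without male replicate 1 and to -0.69 under median-of-ratios scaling.

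Among cuticle collagens, 38 of 177 were tested, 16 were higher and 1 lower in females (9 and 4 under median-of-ratios scaling, where the median of 0.86 became -0.0005). By TPM the share of higher collagens is near the 46.7% over all genes tested, and 22.2% of all genes were lower. The 1 lower call was lost without female replicate 2 or without male replicate 3. *col-118* had 24.6, 29.7 and 20.9 TPM in females, against 0, 0.08 and 0.37 TPM in males. Transthyretin-related genes, a large secreted family of nematodes, had 9 higher and 7 lower of 41 tested (5 and 19), with a median of 0.05 that became -0.85. *ttr-12* was listed at 0 TPM in all 3 female libraries, against 102, 101 and 88.6 TPM in males, and *ttr-42* had 18.9, 30.8 and 21.1 TPM in females, against 0.6, 0 and 0 TPM in males. Among fatty acid desaturases and elongases, 1 was higher and 4 lower of 15 tested (0 and 7), with the median going from 0.05 to -0.85, and the 1 higher call was lost without female replicate 1, female replicate 3 or male replicate 1. *elo-7* was listed at 0 TPM in all 3 female libraries, against 39.3, 39 and 39.2 TPM in males.

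Heat shock genes gave 1 higher and 3 lower of 13 tested in females (0 and 3 under median-of-ratios scaling, with the median of 0.59 becoming -0.31). Among all genes the shares were 46.7% higher and 22.2% lower by TPM, and 20.9% and 32.3% under median-of-ratios scaling. The count of higher heat shock genes varied with the libraries: 4 without female replicate 1, 0 without female replicate 3, 0 without male replicate 1 and 2 without male replicate 3. *hsp-4*, the BiP chaperone of the endoplasmic reticulum, was lower in females, at 103, 117 and 141 TPM, against 423, 356 and 356 TPM in males (log2 difference -1.65, SE 0.15, adjusted p = 3.53e-05).

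Over all genes, the 10 largest differences toward females were *vit-5*, *vit-4*, *ule-4*, *F20D12.12*, *vit-3*, *ule-1*, *F44E5.16*, *ZC373.2*, *C10G8.4* and *vit-2*. *ZC373.2*, an X-linked protein-coding gene with no given name, had 1375, 1183 and 1308 TPM in females, against 6.77, 0.52 and 0 TPM in males (log2 difference 9.14, SE 0.70, adjusted p = 1.33e-05). *C10G8.4* had 605, 523 and 535 TPM in females and *F44E5.16*, a non-coding RNA, had 629.6, 509 and 618 TPM in females, and both were listed at 0 in all 3 male libraries. The 10 largest differences toward males were 8 MSP genes, *nspd-2* and *Y59E9AR.7*. *Y59E9AR.7*, on chromosome IV, was listed at 0 TPM in all 3 female libraries, against 11997, 11139 and 11066 TPM in males (log2 difference -13.48, SE 0.11, adjusted p = 9.02e-10).

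The chromosomes carried these genes unequally. Past 8-fold, 14.5% of the 647 X-linked genes tested were higher in females, against 5.89% of all genes, and 3.25% were lower in females, against 17.6% of all genes. Both held under median-of-ratios scaling (11.5% and 3.79% on X). Chromosome IV held the largest share of genes lower in females past 8-fold, 25.6%, and chromosome III the smallest of the autosomes, 12.6%. No gene of the sperm list and none of the MSP list was X-linked, while 5 of the 6 vitellogenin genes and the 4 MEG genes were. Of all X-linked genes tested, 36.0% were higher and 9.43% lower in females by TPM, against 46.7% and 22.2% of all genes. Under median-of-ratios scaling, 17.6% of these X-linked genes were higher and 29.4% lower, against 20.9% and 32.3% of all genes. The median log2 difference of X-linked genes was 0.43 by TPM, against 0.88 over all genes. Under median-of-ratios scaling it was -0.50, against -0.06 over all genes. Relative to all genes the TPM median was -0.45, and -0.12 with a minimum of 1 TPM. These are descriptions, since genes of 1 family are neighbours, and 40 genes tested had no chromosome match.

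**Figure D5:**
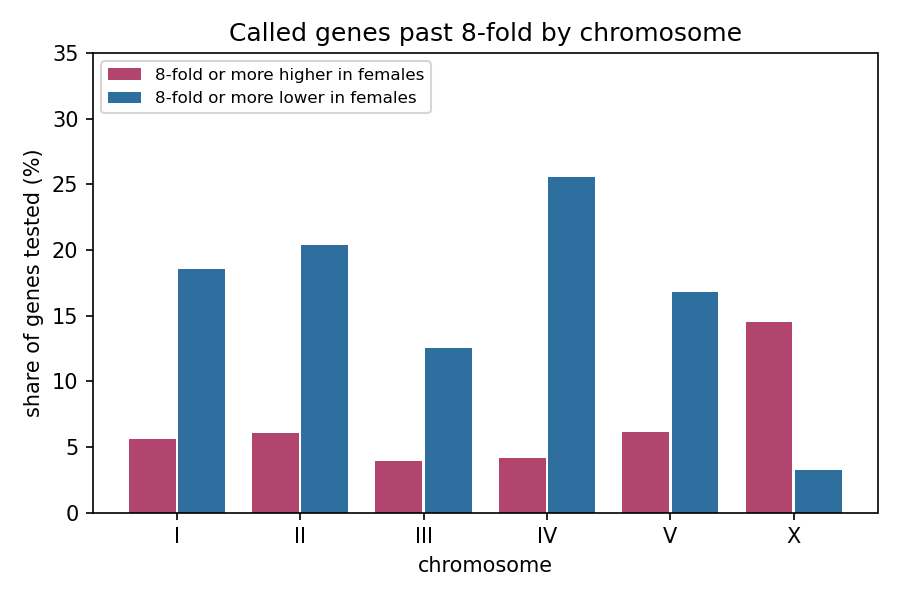
Share of the genes tested on each chromosome that were called and at least 8-fold higher (left bars) or lower (right bars) in females. The X has 14.5% higher and 3.25% lower, and chromosome IV has 4.15% higher and 25.6% lower.

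Other libraries of the series show where these transcripts were found outside the adults. Those tables were made separately, so the values are set side by side without a test. In 30 single 2-cell embryos of WT sires, whose RNA is largely maternal, 90.5% of the genes higher in females had a median of at least 1 TPM, against 60.02% of all genes tested and 3.80% of the genes lower in females. At 5 TPM the shares were 87.3%, 57.0% and 2.50%. All 33 maternal regulators passed 1 TPM and 0 of the 33 tested MSP genes did. Of the yolk list 1 of 7 did, *rme-2*. The *vit* genes are known to be transcribed in the intestine. In small RNA libraries of purified sperm and whole males (4 each), fragments of mRNA had a median of 2.19 rpm (reads normalised to library size) in sperm and 0.828 rpm in males for genes lower in females. The medians were 1.15 rpm in sperm and 0.277 rpm in males for genes higher in females, and 1.49 rpm in sperm and 0.371 rpm in males for all genes tested. Fragments were more abundant in sperm than in males for 84.1% of the genes lower in females, 91.9% of the genes higher in females and 89.8% of all genes tested.

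The sex difference was measured again in the 6 libraries of *rnst-2*-sired progeny, which share no library with the control-sired set. The labels and the header of the table give their genotype or allele as *rnst-2(pen4)*, the catalytic mutant, and heterozygous in the labels, while a legend of the study describes the sires as deletion mutants, and the difference was not resolved. There 4549 of 8865 genes tested (51.3%) were higher in females and 1788 (20.2%) were lower, with a median log2 difference of 1.11. Of the 3840 control-sired genes higher in females that were also tested there, 3749 were higher again. Of the 1827 lower ones, 1687 were lower again, and 0 genes were called in opposite directions. A test of the difference between the 2 sex differences found 5 of 8642 genes (0.0579%) at an adjusted p under 0.05, and 1151 at an unadjusted p under 0.05. Only 1 of the 5, *F20D12.12*, was tested in the control-sired comparison. It had 942, 328 and 1239 TPM in control-sired females, against 0 TPM in all 3 control-sired males, and 434, 361 and 242 TPM in *rnst-2*-sired females, against 141, 239 and 374 TPM in *rnst-2*-sired males.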

How the data were processed

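Whole adult worms were measured by poly(A) RNA-seq. The authors aligned reads with STAR to release WS245 and estimated levels with RSEM, so the deposited values are TPM (levels scaled by transcript length and library total) plus 1. The 1 was subtracted, and rows were summed by sequence name, which left 46725 names (827 had 2 or more rows). Per the study's methods the libraries were made with a stranded kit. Whether the counting used strand, and the versions of the tools, are not given in the sources used here. Testing was limited to genes whose mean reached 5 TPM, and used limma 3.58.1 (trend, R 4.3.3) on log2(TPM + 1) with Benjamini-Hochberg adjustment. The calls need an adjusted p under 0.05 and a log2 difference of at least 1. On simulated data with 200 genes changed by 1.5 (log2) among 8290, 149 were found, with 2 false calls. The simulation changed a far smaller share of genes than was called here. Its false calls therefore do not measure the error of this comparison. Groups were taken from the labels, members and gene lists were chosen with earlier results of these data known, and no list was tested as a set.

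Genes were named by a rule: all members of 4 short lists (sex determination, yolk, seminal, sperm chromatin), up to 4 called members with the largest differences of every other list plus textbook members, the 10 largest and 10 smallest differences and the 5 most abundant genes of each sex. Alternatives were a pseudocount of 0.1, a minimum of 1 TPM, no filter, median-of-ratios scaling, TPM without rRNA genes or without the 100 most abundant genes, transcripts kept apart, all 12 F1 libraries in 1 fit, the rule of the study's methods (unadjusted p up to 0.01, with the size of the log2 difference above 1), leaving out each library, and a replicate block. For the small RNA fragments the authors deposited counts per RNA, trimmed with Trimmomatic and assigned with Bowtie2, STAR and featureCounts, which were divided by library totals. Embryo values are also deposited as TPM plus 1. Positions and sequences are from RefSeq on WBcel235. Tables were joined in Python 3.11.15 with pandas 2.3.3, numpy 2.4.6 and scipy 1.17.1.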

Additional observations from a re-analysis of the deposited data

Results flagged for a closer look

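For 5 genes the sex difference itself differed between *rnst-2*-sired and control-sired progeny (limma interaction on log2(TPM + 1), 3 libraries in each of 4 groups, *rnst-2*-sired minus control-sired). *F20D12.12* had an interaction of -8.98 (SE 0.64, adjusted p = 6.89e-05), with the per-library values given above, and overlaps a snoRNA gene on the opposite strand of chromosome IV. The libraries were stranded, but whether the counting used strand is not given, and whether reads of both were told apart was not tested. *Y69A2AR.24* had -7.35 (SE 0.32, adjusted p = 5.62e-07): it was listed at 0 in all *rnst-2*-sired females, against 112.7, 197 and 191 TPM in *rnst-2*-sired males, and at 0 in all 6 control-sired libraries. *Y69A2AR.50*, a neighbouring gene, had -6.70 (SE 0.69, adjusted p = 0.00127), from 0 TPM in *rnst-2*-sired females, against 299, 58.0 and 62.7 TPM in *rnst-2*-sired males, and 0 in all 6 control-sired libraries. The snoRNA gene *C41C4.11* had 6.53 (SE 0.52, adjusted p = 0.000157), from 79.6, 50.99 and 187 TPM in *rnst-2*-sired females, against 0 TPM in *rnst-2*-sired males and in all 6 control-sired libraries. The non-coding *R10E11.13* had 5.74 (SE 0.54, adjusted p = 0.000663), from 33.02, 113.1 and 38.4 TPM in *rnst-2*-sired females, against 0 TPM in *rnst-2*-sired males and in all 6 control-sired libraries. An exact 0 here may be a failed estimate of a short transcript, so each is given only as listed.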

How the results depend on the processing

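Scaling decided most. The count of genes higher in females was 3868 by TPM and 1723 under median-of-ratios scaling, and the counts of lower genes were 1842 and 2666. Other settings gave 3968 higher and 1855 lower (pseudocount 0.1), 4784 and 2496 (minimum 1 TPM), 4851 and 2617 (no filter), 3869 and 1841 (without rRNA genes), 4201 and 2065 (without the 100 most abundant genes), 3890 and 1845 (transcripts apart), 3871 and 1837 (all 12 libraries) and 3381 and 1563 (the rule of the study's methods). Leaving out single libraries gave 3567 to 4040 higher and 1703 to 1921 lower. The count of genes whose sex difference differed by sire, 5, was 9 with a pseudocount of 0.1, 8 with a minimum of 1 TPM, 8 with no filter and 5 to 8 without single libraries (8 without female replicate 2 or male replicate 2). Direction turned for *fem-1* (-0.60), *laf-1* (-0.29), *csr-1* (-0.50), *prg-1* (-0.33) and *ges-1* (-0.69) under median-of-ratios scaling, for *ges-1* without male replicate 1 (single libraries gave -0.0778 to 0.4201) and for *unc-54* without male replicate 3 (-0.7228 to 0.1147). The cause was not tested. Of 173 genes followed, 24 lost and 7 gained a call under median-of-ratios scaling, and 23 lost it under the rule of the study's methods, *her-1* and *him-8* among them.

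Whether replicate numbers pair the sexes was not settled. Deviations correlated at 0.31, -0.05 and 0.18, and 2 of 3 female libraries matched their own number best. With a replicate block, 3880 genes were higher and 1846 lower, 5 differed by sire, and no followed gene changed its call. The block lowered the adjusted p (limma) of *laf-1* from 0.183 to 0.00689, of *csr-1* from 0.268 to 0.0499 and of *prg-1* from 0.0857 to 0.0412. These differences stayed under 2-fold. Depth is unknown, so an exact 0 has no stated limit, and 3 libraries a sex limit precision.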
